A study of Mus musculus with 2 samples.

Results

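The genes described here encode the subunits of the mitochondrial respiratory chain and of ATP synthase, taken from single-cell transcriptomes of mouse lung. The members were the rows of both count matrices whose symbol begins with mt-Nd, mt-Co, mt-Cytb, mt-Atp, *Nduf*, *Uqcr*, *Cox4* to *Cox8* or *Atp5*, or is *Sdha*, *Sdhb*, *Sdhc* or *Sdhd*. Of 106 such rows, 2 were left out by name (*Cox4i2* and *Ndufa4l2*, which mark pericytes) and 1 had no unique molecular identifier (UMI), which left 103 members among 18802 genes with a UMI. In the mitochondrial genome lie 13 of them and in the nuclear genome 90. By complex, the nuclear members were 36 of complex I, 4 of complex II, 8 of complex III, 18 of complex IV, 16 of complex V and 8 assembly factors of complex I (*Ndufaf*). The mitochondrial members were 7 of complex I, 1 of complex III, 3 of complex IV and 2 of complex V. *Cyc1*, a subunit of complex III, is not matched by the symbols and was not counted as a member.

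Single lung cells were compared between C57/B6 mice kept in normoxia and C57/B6 mice kept at 10% inspired oxygen for 3 weeks (hypoxia), aged 2 to 4 months and without a transgene; the study's methods name males for the hypoxia exposure. The lungs were dissociated with enzymes, depleted of CD45+ leukocytes and CD326+ epithelial cells, and captured by the 10x Chromium 3' method, in which UMIs count captured transcripts. There was 1 library per condition, so that condition, library and handling cannot be told apart. Several wild-type animals were exposed to hypoxia, but whether their cells were pooled into that library, and how many animals gave the normoxia cells, is not stated in the sources used here. The normoxia library held 2223 cells with 7630683 UMIs and the hypoxia library 809 cells with 2685345 UMIs, and 1 barcode occurred in both.

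The respiratory chain passes electrons from NADH and succinate through complexes I to IV to oxygen and pumps protons that drive ATP synthase, complex V. Complex II is built from nuclear genes alone, whereas the other complexes combine nuclear subunits, imported from the cytosol, with a few core subunits that mitochondria transcribe and translate themselves. Transcripts from both genomes are therefore needed for 1 machine, and the mitochondrial ones come from polycistronic transcripts of both strands of a small circular genome that each cell holds in many copies. In single-cell work the share of mitochondrial UMIs also serves as a quality measure, since leaky cells lose cytosolic RNA.

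The mitochondrial genes of these matrices are the 13 members and no others, so the usual limit of 5% mitochondrial UMIs acts on their sum. The summed levels of the EC-like, fibroblast-like, AT1-like and pericyte-like cells are therefore given with and without it, and other values are for cells within it unless stated. Within limits of 200 to 4000 detected genes, 813 of 2161 normoxia cells (37.6%) and 107 of 796 hypoxia cells (13.4%) exceeded 5%, which left 1348 and 689 cells. The summed mitochondrial levels, over all 13 genes or over those of 1 complex, are UMIs per 1000000 of all UMIs of the same cells. All other levels, and those of single mitochondrial genes, are UMIs per 1000000 non-mitochondrial UMIs (CPM), so that mitochondrial RNA does not enter the denominator. A 3' UMI count is not scaled by transcript length. Levels carry exact Poisson 95% intervals, ratios of hypoxia to normoxia exact conditional binomial ones and shares of cells exact Clopper-Pearson ones, all of which cover counting error only. With 1 library per condition no test was possible and no p-value is given.

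Cells were clustered without the members among the variable genes and named from marker genes. EC-like (endothelial) cells were the only named class with over 100 cells in both libraries, 726 in normoxia and 444 in hypoxia. All 12 EC markers, among them *Cdh5* and *Pecam1*, were detected there in both libraries, with a summed level of 19322 CPM in normoxia and 18308 CPM in hypoxia. In the same cells, the 12 fibroblast markers summed to 202 and 46.0 CPM and the 10 pericyte markers to 68.0 and 57.0 CPM. Some other lists summed higher, the 8 AT1 markers to 1767 and 2168 CPM and the 5 glial markers to 1438 and 2020 CPM. The 11 smooth muscle markers summed to 413 and 431 CPM and the 7 airway markers to 306 and 1195 CPM. The EC markers also served to name the clusters, so their level is no separate check.

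The nuclear members lie on 19 chromosomes, and their promoters are shown first because nuclear respiratory factors are known to bind many of them. RefSeq promoters of GRCm38.p6 (250 bases before to 50 bases after the start) were found for 74 of the nuclear members, with 79 promoters. On either strand, the NRF1 letters (GCGCA, any base, then GCGC) occurred in 25.3% of these promoters and in 4.60% of all 32851 promoters of the same length. The GABP or ETS letters CCGGAAG occurred in 22.8% against 8.86%, and the YY1 letters AANATGGC in 22.8% against 6.05%. The core letters of the hypoxia-inducible factors, ACGTG, occurred in 22.8% of member promoters and in 19.6% of all promoters. None of these 4 sets of letters overlapped another in the promoters printed. Below are *Cox6b1* (chr7:30626065-30626364) and its isoform *Cox6b2* (chr7:4753045-4753344), which differed most between cell classes, and *Atp5e* (chr2:174464052-174464351) and *Atp5g2* (chr15:102670998-102671297), which had 2 of the 3 largest ratios in EC-like cells, all on the minus strand and printed 5′ to 3′ along the gene. Capitals mark matches to the 4 sets of letters.
Cox6b1: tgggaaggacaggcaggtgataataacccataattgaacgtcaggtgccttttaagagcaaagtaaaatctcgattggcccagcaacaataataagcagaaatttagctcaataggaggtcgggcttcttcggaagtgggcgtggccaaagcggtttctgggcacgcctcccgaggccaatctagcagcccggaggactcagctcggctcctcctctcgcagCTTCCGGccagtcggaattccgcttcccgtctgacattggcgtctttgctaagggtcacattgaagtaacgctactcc
Cox6b2: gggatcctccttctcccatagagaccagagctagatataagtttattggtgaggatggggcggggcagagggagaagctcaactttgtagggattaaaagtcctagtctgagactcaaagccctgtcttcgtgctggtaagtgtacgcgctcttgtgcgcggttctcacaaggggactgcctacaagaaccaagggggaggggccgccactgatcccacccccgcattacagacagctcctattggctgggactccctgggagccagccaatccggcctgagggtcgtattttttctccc
Atp5e: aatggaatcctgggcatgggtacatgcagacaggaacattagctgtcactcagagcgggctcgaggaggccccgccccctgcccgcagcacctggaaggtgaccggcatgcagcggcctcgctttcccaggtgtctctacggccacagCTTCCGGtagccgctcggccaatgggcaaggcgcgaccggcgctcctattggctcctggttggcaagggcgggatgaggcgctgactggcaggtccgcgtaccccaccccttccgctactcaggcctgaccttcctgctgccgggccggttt
Atp5g2: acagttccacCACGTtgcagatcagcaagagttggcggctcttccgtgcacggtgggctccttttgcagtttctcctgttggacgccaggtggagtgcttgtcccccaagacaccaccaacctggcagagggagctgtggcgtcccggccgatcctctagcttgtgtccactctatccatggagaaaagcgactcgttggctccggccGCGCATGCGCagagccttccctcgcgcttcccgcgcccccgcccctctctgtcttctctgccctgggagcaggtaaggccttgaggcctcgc
*Cox6b1* and *Atp5e* each held 1 GABP or ETS match, read on the opposite strand. *Atp5g2* held 1 NRF1 match and 1 match to the core letters of the hypoxia-inducible factors, the latter near the far end of the window. *Cox6b2* held none of the 4, which says only that these letters are not in this window.

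In EC-like cells the mitochondrially encoded subunits were at roughly 0.54 of their normoxia level after hypoxia. Their 13 genes summed to 25066 UMIs per 1000000 in normoxia (84742 UMIs) and to 13609 in hypoxia (25183 UMIs), a ratio of 0.543 (0.535 to 0.551). Without the 5% limit, over 871 and 493 cells, the levels were 28840 and 15915 per 1000000 UMIs and the ratio 0.552 (0.545 to 0.559). With cells above it classed by their nearest kept cells, the limit thus lowered both levels and left their ratio nearly in place. Of the 813 normoxia and 107 hypoxia cells above it, 484 and 45 got no class name in this way. When cells above the limit were instead clustered with the rest, mitochondrial ratios by complex ran from 0.425 to 0.530. Within the limit they ran from 0.477 to 0.609.

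All 13 genes were lower in hypoxia by at least 1.5-fold, and 4 of them by at least 2-fold. Over the 8513 genes with at least 50 UMIs in EC-like cells, 11.1% were lower by 1.5-fold or more. The median ratio was 0.531 over the 13 genes and 1.01 over all of those genes. *mt-Atp6*, a subunit of the proton channel of ATP synthase, had the most UMIs of the 13, with 17135 in normoxia (5199 CPM) and 4464 in hypoxia (2446 CPM), a ratio of 0.470 (0.455 to 0.486). *mt-Cytb*, the only mitochondrial subunit of complex III, had the ratio nearest to 1, at 3397 and 2044 CPM, 0.602 (0.580 to 0.625). *mt-Nd4l*, a membrane subunit of complex I, had the ratio furthest from 1, at 285 and 116 CPM, 0.405 (0.347 to 0.471). Without the 5% limit the 13 ratios ran from 0.406 to 0.606.

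The catalytic subunits of cytochrome c oxidase lay between these. *mt-Co1*, which carries the oxygen-binding centre, went from 2870 to 1586 CPM, a ratio of 0.553. *mt-Co2*, which takes electrons from cytochrome c, went from 3478 to 1848 CPM, a ratio of 0.531. *mt-Co3* went from 4282 to 2467 CPM, a ratio of 0.576. All 3 were thus lower by a similar factor.

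The other complex I genes, which form its proton-pumping membrane arm, spanned ratios of 0.455 to 0.583. *mt-Nd1*, *mt-Nd2* and *mt-Nd4* stood at 0.560, 0.527 and 0.538, and *mt-Nd3* at 0.467. *mt-Nd5* stood at 0.583 (0.516 to 0.657). *mt-Nd6*, the only member on the minus strand of the mitochondrial genome, had 135 UMIs in normoxia and 34 in hypoxia, and its ratio of 0.455 (0.303 to 0.667) lay in the same range as those of the plus-strand genes. *mt-Atp8* had 437 and 124 UMIs and a ratio of 0.512 (0.416 to 0.627).

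Some of these genes share bases in GRCm38, so their separate counts are uncertain. *mt-Atp8* (7766 to 7969 of the mitochondrial genome) overlaps *mt-Atp6* (7927 to 8607), and *mt-Nd4l* (9877 to 10173) overlaps *mt-Nd4* (10167 to 11544). *mt-Nd6* (13552 to 14070) overlaps the end of *mt-Nd5* on the opposite strand.

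**Figure D1:**
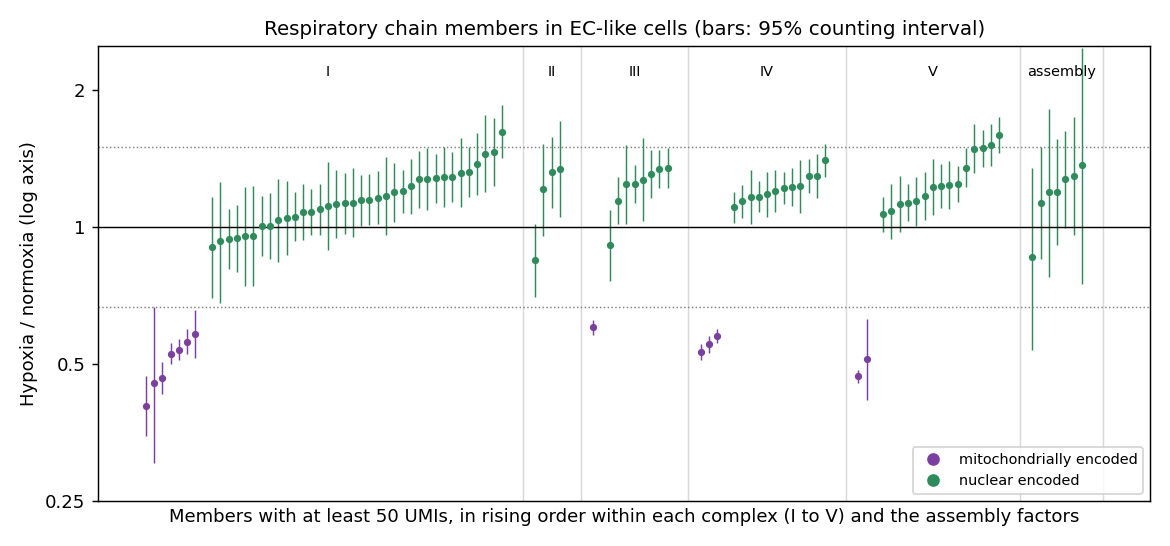
Ratio of hypoxia to normoxia (vertical log axis) for each of the 95 members with at least 50 UMIs in EC-like cells, grouped by complex and coloured by genome of origin; bars are 95% counting intervals, and dotted lines mark 1.5-fold. The 13 mitochondrially encoded members lie between 0.405 and 0.602, below every nuclear member.

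The 90 nuclear members together were slightly higher in hypoxic EC-like cells, from 14668 CPM (48347 UMIs) in normoxia to 17838 CPM (32559 UMIs) in hypoxia. The ratio was 1.216 (1.199 to 1.233), and 1.244 (1.227 to 1.261) without the 5% limit. Mitochondrial UMIs per nuclear member UMI went from 1.75 in normoxia to 0.773 in hypoxia, a ratio of 0.441 (0.433 to 0.450) that does not depend on the library scale.

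Most nuclear members shifted by a little and few by much. Of the 82 with at least 50 UMIs, 73 had a ratio above 1 and 9 below 1, and the median was 1.20. Only 3 of 82 (3.66%) were higher by 1.5-fold or more, against 7.64% of all genes tested, and none was lower by 1.5-fold, against 11.1%. The share past the fold was therefore under that of all genes, while the median was above theirs.

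Of the 8 members with the ratio furthest above 1 by its lower bound, 5 belong to ATP synthase, which holds 16 of the 90 nuclear members. A ranking by this bound favours members with many UMIs. *Atp5e*, the epsilon subunit of the central stalk, had 981 UMIs (298 CPM) in normoxia and 866 UMIs (474 CPM) in hypoxia, a ratio of 1.59 (1.45 to 1.75). *Atp5d*, the delta subunit of the same stalk, had 582 UMIs (177 CPM) and 479 UMIs (262 CPM), a ratio of 1.49 (1.31 to 1.68). These neighbours in the rotor stalk thus had overlapping intervals.

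*Atp5g2*, 1 of 3 genes for the identical c subunit of the membrane ring, had 758 UMIs (230 CPM) in normoxia and 637 UMIs (349 CPM) in hypoxia, a ratio of 1.52 (1.36 to 1.69). Its sister genes stood lower, *Atp5g1* at 163 CPM in normoxia and 176 CPM in hypoxia and *Atp5g3* at 146 and 179 CPM. *Atp5j*, of the peripheral stalk, had a ratio of 1.49 (1.36 to 1.63) and *Atp5j2*, of the membrane part, 1.35 (1.22 to 1.49). The c subunit genes thus differed among themselves, with *Atp5g2* the most abundant in both libraries.

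The other 3 were *Ndufa3*, *Ndufv3* and *Cox7a2*. *Ndufa3*, an accessory subunit of complex I (chr7:3617373-3620327, plus strand), had 480 UMIs (146 CPM) in normoxia and 431 UMIs (236 CPM) in hypoxia, and its ratio of 1.62 (1.42 to 1.85) was the largest of the 82. Its exons overlap those of *Tfpt* on the other strand, as those of *Atp5j* overlap *Gabpa* and those of *Atp5d* overlap *Cbarp*. How strand was treated in the counting is not given in the sources used here. On the same strand, 4 nuclear members have exons that overlap those of another row, among them *Ndufb9* with *Gm49356*. *Ndufv3* had a ratio of 1.46 (1.23 to 1.73) and *Cox7a2*, the isoform of subunit VIIa found in most tissues, 1.40 (1.29 to 1.52).

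Pooled within the 6 EC-like clusters that had 10 cells or more from both libraries, these 8 members ran from 1.07 to 1.26 and none was past 1.5-fold. The interval lay above 1 for *Atp5d* at 1.26 (1.03 to 1.54), *Atp5e* at 1.23 (1.04 to 1.44) and *Cox7a2* at 1.21 (1.05 to 1.39). It included 1 for the other 5, among them *Ndufa3* at 1.18 (0.943 to 1.48) and *Atp5g2* at 1.12 (0.928 to 1.34). Their order over the whole class thus did not carry over to cells of the same cluster.

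The 8 members at the low end had intervals that included 1 over the whole class. *Sdha*, the flavoprotein that oxidizes succinate in complex II, had 365 UMIs (111 CPM) in normoxia and 171 UMIs (93.7 CPM) in hypoxia, a ratio of 0.846 (0.701 to 1.02). *Uqcrc2*, a core subunit of complex III, had a ratio of 0.913 (0.761 to 1.09). *Ndufv1*, which binds NADH in complex I, had 188 and 94 UMIs and a ratio of 0.903 (0.697 to 1.16). *Ndufa5*, *Ndufb10*, *Ndufb3*, *Ndufab1* and *Atp5h* had ratios between 0.944 and 1.07. *Atp5h*, of the peripheral stalk, was the exception in other sets of cells, at 0.781 (0.671 to 0.910) within clusters and 1.13 (1.04 to 1.23) without the 5% limit, whereas the intervals of the other 7 included 1 there too. *Sdha* stood at 1.05 (0.790 to 1.39) within clusters.

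In each complex with subunits from both genomes, the mitochondrial subunits were lower and the nuclear subunits higher in hypoxic EC-like cells. Complex I stood at 0.532 (0.517 to 0.547) for its mitochondrial and 1.17 (1.14 to 1.20) for its nuclear subunits. Complex III stood at 0.609 (0.587 to 0.632) and 1.252 (1.199 to 1.307). Mitochondrial sums are per all UMIs here, so its single gene *mt-Cytb*, at 0.602 per non-mitochondrial UMIs, stands at 0.609. Complex IV stood at 0.562 (0.550 to 0.574) and 1.213 (1.181 to 1.246). Complex V had both the lowest mitochondrial ratio, 0.477 (0.462 to 0.493), and the highest nuclear ratio, 1.27 (1.24 to 1.31). Complex II, with no mitochondrial subunit, stood at 1.132 (1.023 to 1.251), and the assembly factors at 1.18 (1.05 to 1.33). Without the 5% limit the mitochondrial sums ran from 0.488 to 0.614 and the nuclear ones from 1.14 to 1.30, in the same directions. These are values over the whole class. Complexes were not computed within clusters, where all nuclear members together stood at 1.01 (0.985 to 1.03).

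The lower mitochondrial level was found in each cluster that could be compared, whereas the higher nuclear level was not. Both libraries had 10 cells or more in 6 EC-like clusters, where the mitochondrial ratio ran from 0.244 to 0.863 with every interval below 1. Over the same 6 clusters, with 408 normoxia and 115 hypoxia cells, the mitochondrial ratio pooled within clusters was 0.478 (0.466 to 0.490). The nuclear ratio pooled in this way was 1.01 (0.985 to 1.03), and by cluster it ran from 0.964 to 1.10. Cluster 13, whose leading genes *Ednrb* and *Car4* mark aerocytes, shows both. Its 93 normoxia and 38 hypoxia cells had 22428 and 8505 mitochondrial UMIs per 1000000, a ratio of 0.379 (0.364 to 0.395), at a nuclear level of 15097 and 15034 CPM, a ratio of 0.996 (0.961 to 1.03).

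Gene by gene, the same held within clusters. All 13 mitochondrial members were lower by 1.5-fold or more, with a median of 0.470, against 8.77% of the 6658 genes tested there. Of 80 nuclear members, 1 was higher by that much (*Sdhd*, a membrane anchor of complex II, 1.51, 1.05 to 2.17, named after its value was seen), against 8.58% of all genes, and none was lower, with 43 above 1 and 37 below 1 and a median of 1.02.

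The nuclear ratio was nearer to 1 when clusters held mostly by 1 library were left out, which removed most hypoxia cells of the class. Cluster 17, led by *Ntrk2*, *Cd74* and *Cdk19*, had 187 hypoxia and 6 normoxia cells and a nuclear level of 18753 CPM in hypoxia. Cluster 22 had 128 hypoxia and 7 normoxia cells, a nuclear level of 22087 CPM, a median of 1057 UMIs per hypoxia cell, and 668 CPM of the nuclear RNA *Malat1* where all hypoxic EC-like cells had 28110 CPM. On the other side, cluster 1, led by the immediate-early genes *Ier3*, *Egr1* and *Atf3*, had 127 normoxia and 2 hypoxia cells and a nuclear level of 12452 CPM. Without the 6 EC-like clusters in which 1 library had more than 10 times the cells of the other, the nuclear ratio was 1.03 and the mitochondrial ratio 0.502. This left 410 of 726 normoxia and 119 of 444 hypoxia cells, nearly the same cells as those pooled within clusters. It is therefore not a separate check. The clusters came from expression without library integration, so a state of hypoxic cells and a difference in make-up cannot be told apart.

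Other RNA classes also differed between the libraries in the same cells, in both directions. The cytosolic ribosomal proteins were higher by a similar factor to the nuclear members, at 75816 and 92086 CPM (1.21). Nuclear member UMIs were thus 19.3% of ribosomal protein UMIs in normoxia and 19.4% in hypoxia. Within clusters the median ratio of the ribosomal proteins was 0.937. The immediate-early genes summed to 29058 CPM in normoxia and 10627 CPM in hypoxia. Of 16 such genes, 15 were lower by 1.5-fold or more, against 11.1% of all genes. Their median ratio was 0.313 over the class and 0.635 within clusters. *Malat1* went from 45480 to 28110 CPM, and the airway transcript *Scgb1a1*, which ECs are not known to make, from 296 to 1177 CPM. Their part in the levels of the members was not tested.

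**Figure D2:**
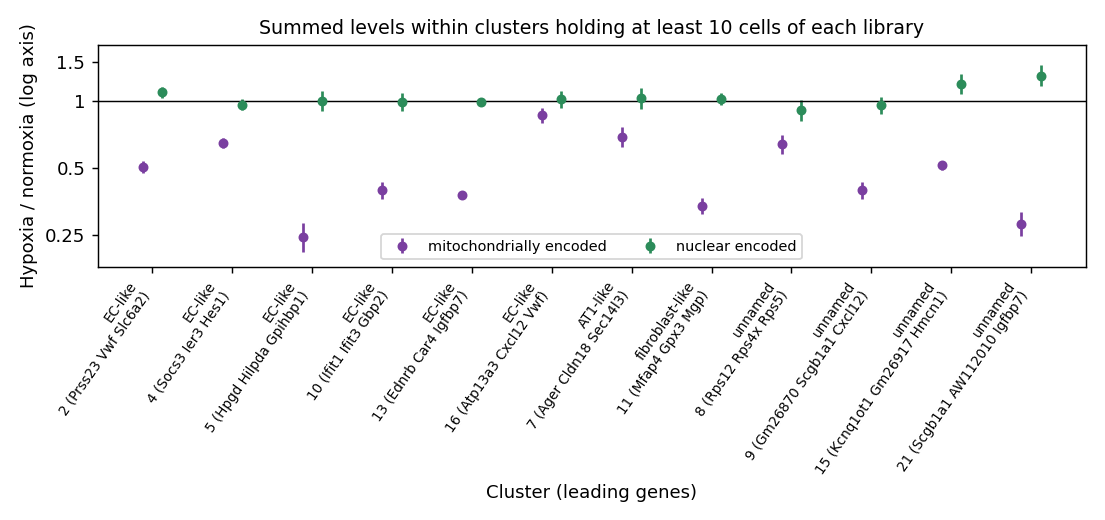
Ratio of hypoxia to normoxia (vertical log axis) for the summed mitochondrially and nuclear encoded members in each of the 12 clusters in which both libraries had 10 cells or more, named by class and leading genes; bars are 95% counting intervals. The mitochondrial ratio is below 1 in 12 of 12 clusters, and the nuclear ratio runs from 0.911 to 1.31.

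The lower mitochondrial level in hypoxia was not spread evenly over cells. In EC-like cells the median share of mitochondrial UMIs was 2.44% in normoxia (quartiles 1.88% and 3.20%) and 1.20% in hypoxia (quartiles 0.236% and 2.29%). A share of at most 0.5%, a value chosen after the distribution was seen, was found in 8 of 726 normoxia cells (1.10%, 0.477 to 2.16) and in 152 of 444 hypoxia cells (34.2%, 29.8 to 38.9). Of these hypoxia cells, 27 had no mitochondrial UMI at all, and none of the normoxia EC-like cells did.

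These hypoxia cells were not shallow. Their median was 3596 UMIs and 1741 genes, next to 3689 UMIs and 1770 genes in the other 292 hypoxic EC-like cells. Their nuclear members stood at 18354 CPM (18022 to 18690), next to 17563 CPM (17326 to 17803), and *Cdh5* at 2659 and 2268 CPM. The mitochondrial sums of the same cells were 1559 and 19918 per 1000000 UMIs. The pooled nuclear level was thus slightly higher in the cells with little mitochondrial RNA. Its intervals do not overlap, but they leave out the spread between cells and clusters. By cluster, the hypoxic EC-like level ran from 14855 CPM (cluster 4) to 22087 CPM (cluster 22). *Malat1* was lower in the cells with little mitochondrial RNA, at 22651 CPM against 31020 CPM, and its part was not tested.

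Such cells occurred in each cluster that held enough cells of both libraries. Their share in hypoxia ran from 16.7% (2 of 12 cells, cluster 16) to 60.0% (6 of 10 cells, cluster 5) over the 12 clusters in which both libraries had 10 cells or more, and in normoxia from 0% to 10.4%. Fibroblast-like cells had 9 of 186 in normoxia (4.84%, 2.24 to 8.99) and 16 of 34 in hypoxia (47.1%, 29.8 to 64.9). Over all kept cells the counts were 35 of 1348 (2.60%) and 241 of 689 (35.0%).

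Leaving these cells out of both libraries gave an EC-like mitochondrial ratio of 0.788, next to 0.543 with them, and a nuclear ratio of 1.20. Since the cells were left out by their mitochondrial share and most were hypoxia cells, the direction of that move was fixed by the choice.

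**Figure D3:**
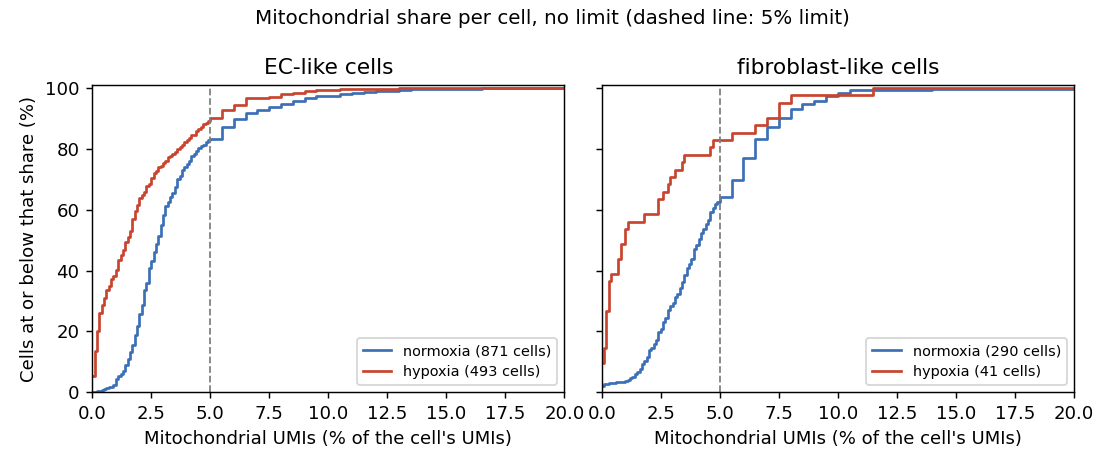
Cumulative share of cells (vertical axis, %) at or below each mitochondrial share of UMIs (horizontal axis, %) for EC-like and fibroblast-like cells of both libraries, without the 5% limit, which is marked by the dashed line. The hypoxia curves rise steeply near 0, where the normoxia curves are flat, and lie to the left of them below the limit.

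The limit removed different shares of the classes, and more in normoxia than in hypoxia for most. Of the cells that could be given a class, it removed 145 of 871 EC-like cells (16.6%) in normoxia and 49 of 493 (9.94%) in hypoxia. For fibroblast-like cells the counts were 104 of 290 (35.9%) and 7 of 41 (17.1%), and for AT1-like cells 38 of 86 (44.2%) and 3 of 14 (21.4%). In AT2-like cells, the surfactant-producing cells of the alveolus, it removed 21 of 26 (80.8%, 60.6 to 93.4) in normoxia and 0 of 6 in hypoxia, which allows up to 45.9%. Of the cells without a class name, 484 of 796 (60.8%) and 45 of 224 (20.1%) were above the limit. Above it, these are cells whose nearest kept cells were mostly unnamed or gave no majority. The shares are therefore not losses from unnamed clusters. Pericyte-like cells were the exception to the direction, with 14 of 56 and 3 of 8 (37.5%).

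The cells beyond the limit differed between the libraries in their nuclear members. In normoxia, EC-like cells had 14203 CPM at up to 2.5% mitochondrial UMIs, 15235 CPM from 2.5% to 5%, 11858 CPM from 5% to 10% and 8367 CPM (7416 to 9407) from 10% to 20%. In hypoxia the levels were 17759, 18251 and 19881 CPM over the lower 3 ranges, and 28525 CPM in the 3 cells from 10% to 20%. The nuclear level was thus lower above the limit in normoxia and not in hypoxia. In the range from 5% to 10%, *Malat1* stood at 73812 CPM in normoxia and 15879 CPM in hypoxia, and cytosolic ribosomal proteins 88859 and 172178 CPM, with medians of 1860 and 1375 UMIs per cell, so that the cells beyond the limit also differed in other RNA.

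**Figure D4:**
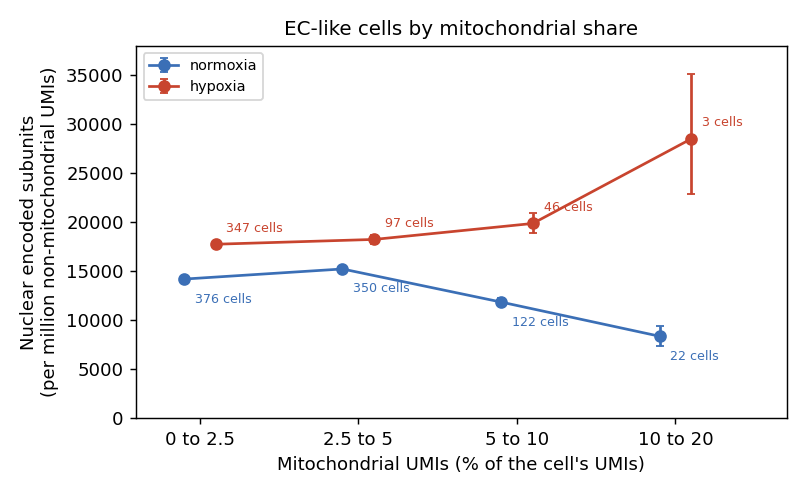
Level of the nuclear encoded members (vertical axis, UMIs per 1000000 non-mitochondrial UMIs) in EC-like cells by range of mitochondrial share (horizontal axis, %), with the number of cells and 95% counting intervals. From 5% upward the normoxia level is lower, down to 8367 CPM, while the hypoxia level is not; the last hypoxia point rests on 3 cells.

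Fibroblast-like cells, 186 in normoxia and 34 in hypoxia, showed the same pair of directions. Their mitochondrial members went from 28869 to 13617 UMIs per 1000000, a ratio of 0.472 (0.444 to 0.501), and 0.557 (0.531 to 0.584) without the limit. Their nuclear members went from 15919 to 21339 CPM, a ratio of 1.34 (1.27 to 1.41), and 1.24 (1.18 to 1.30) without the limit. Cluster 11 held 91 of the normoxia and 31 of the hypoxia cells, and cluster 19 held 95 and 3. In normoxia their nuclear members stood at 23311 and 14611 CPM, so the 2 libraries differ in make-up. Within cluster 11, the only one with 10 or more cells from both libraries, the mitochondrial ratio was 0.336 (0.309 to 0.366). The nuclear ratio there was 1.02 (0.957 to 1.09). Over all fibroblast-like cells, the 12 EC markers summed to 542 CPM in normoxia and to 2693 CPM in hypoxia. *Malat1* stood at 65616 and 25657 CPM and cytosolic ribosomal proteins at 79797 and 128178 CPM. The part of these and of the make-up in the levels of the members was not tested.

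AT1-like cells, the flat cells of the gas-exchange surface, numbered 48 and 11. Their mitochondrial members went from 34518 to 23776 UMIs per 1000000, a ratio of 0.689 (0.621 to 0.763), and their nuclear members stood at 21097 and 21782 CPM, a ratio of 1.03 (0.922 to 1.15). Without the limit, over 86 and 14 cells, the mitochondrial ratio was 0.549 (0.503 to 0.597) and the nuclear ratio 1.03 (0.926 to 1.14). *Malat1* went from 37446 to 598 CPM in the cells within the limit and cytosolic ribosomal proteins from 105836 to 137754 CPM, and their part was not tested. The nuclear level of AT1-like cells in normoxia was thus above that of EC-like cells, 14668 CPM. Their medians were 1090 and 4196 UMIs per cell. Among normoxia fibroblast-like cells, cluster 11, with a median of 983 UMIs, stood at 23311 CPM of nuclear members. Cluster 19, with a median of 7072 UMIs, stood at 14611 CPM. The 12 EC markers summed to 5299 CPM in AT1-like cells of normoxia and to 4907 CPM in hypoxia. The part of depth and of EC transcripts in the AT1-like level was not tested. Pericyte-like cells numbered 42 and 5, with mitochondrial members at 27952 and 8052 UMIs per 1000000 (0.288, 0.235 to 0.349) and nuclear members at 14839 and 22513 CPM (1.52, 1.34 to 1.71). Without the limit, over 56 and 8 cells, the mitochondrial ratio turned to 1.20 (1.12 to 1.28), at 33798 and 40405 UMIs per 1000000, and the nuclear ratio was 1.45 (1.31 to 1.59). With so few hypoxia cells, 592 of whose 998 mitochondrial UMIs came from 1 cell, no direction is read from them. Within the limit the EC markers stood at 5678 CPM in normoxia and 12252 CPM in hypoxia and *Malat1* at 74368 and 3599 CPM.

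Nuclear members differed between classes within normoxia. In AT1-like cells, 30 of 81 members were higher than in EC-like cells by 1.5-fold or more and 2 were lower. Of the 7546 genes tested, 18.7% and 40.3% were, and the median ratio was 1.38 over the members and 0.821 over these genes. Genes were tested by their UMIs in both classes together, and EC-like cells held 3380762 UMIs against 124111 in AT1-like cells. A gene thus entered mostly by its EC-like level, which favours ratios below 1 among all genes. The all-gene values here and for the other classes below are therefore no neutral baseline, and the size of this effect was not tested. Cytosolic ribosomal proteins were also higher in AT1-like cells, at 105836 against 75816 CPM. Nuclear member UMIs were thus 19.9% of ribosomal protein UMIs in AT1-like and 19.3% in EC-like cells. The part of the lower depth of AT1-like cells in these counts was not tested. *Atp5e* stood at 668 CPM there against 298 CPM in EC-like cells (2.24, 1.76 to 2.82), *Ndufc2*, an accessory subunit of complex I, at 417 against 174 CPM (2.40, 1.76 to 3.20), and *Cox6c*, of complex IV, at 793 against 390 CPM (2.03, 1.63 to 2.51). *Ndufs3*, a core subunit of complex I, stood at 2.83 (1.74 to 4.39) with 22 UMIs, and *Ndufb4* at 2.13 (1.51 to 2.93). The median was 1.10 in fibroblast-like cells over 82 members and 1.01 in pericyte-like cells over 81, against 0.908 and 0.905 over all genes. Past 1.5-fold, 6 were higher and 2 lower in fibroblast-like cells (19.2% and 29.3% of all genes), and 5 were higher and 9 lower in pericyte-like cells (17.2% and 31.9%). In the former, *Ndufv3*, *Ndufb9*, *Ndufa13* and *Ndufa11* were higher by 1.79, 1.63, 1.59 and 1.53, and in the latter *Ndufb11* by 1.64 (1.20 to 2.18) and *Cox8a* by 1.36 (1.10 to 1.67). *Ndufb10*, *Ndufa7* and the assembly factor *Ndufaf4* stood at 1.60, 1.42 and 2.04 in pericyte-like cells, the last with 14 UMIs. The difference furthest from 1 in pericyte-like cells was on the lower side, *Ndufa4*, a subunit of complex IV, at 130 CPM against 465 CPM in EC-like cells (0.280, 0.175 to 0.425). Its paralog *Ndufa4l2*, a pericyte marker, is no member.

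Fibroblast-like cells differed from EC-like cells in 2 rare subunit isoforms. *Cox6b2* (chr7:4751792-4753094, minus strand), known as the testis isoform of subunit VIb, had 60 UMIs in 40 of 186 normoxia fibroblast-like cells (75.3 CPM, 57.5 to 96.9) and 2 UMIs in 1 of 726 EC-like cells (0.607 CPM). The ratio was 124, with a counting interval of 32.9 to 1048. In hypoxia the counts were 14 UMIs in 6 of 34 fibroblast-like cells (170 CPM) and 3 UMIs in 2 of 444 EC-like cells (1.64 CPM). Of those 14 UMIs, 9 came from 2 cells of cluster 19. EC-like cells had a median of 4196 UMIs in normoxia and fibroblast-like cells 3626. Cluster 19, which gave 48 of the 60 normoxia UMIs, was deeper than EC-like cells, with a median of 7072. The part of depth was not tested. Its common isoform *Cox6b1*, whose promoter is printed above beside that of *Cox6b2*, stood at 308 CPM in EC-like and 305 CPM in fibroblast-like cells of normoxia.

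*Cox8b* (chr7:140898945-140900446, minus strand), an isoform of subunit VIII known from heart, muscle and brown fat, had 39 UMIs in 29 fibroblast-like cells of normoxia (48.9 CPM, 34.8 to 66.9) and 2 UMIs in EC-like cells. Hypoxic fibroblast-like cells had 3 UMIs (36.4 CPM, 7.51 to 106). *Cox6b2* and *Cox8b* were found in both fibroblast-like clusters: in cluster 19, led by *Gsn*, *Inmt* and *Npnt*, 29 and 21 of 95 normoxia cells had a UMI and 6 had both, and in cluster 11, led by *Mfap4*, 11 and 8 of 91.

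The remaining isoforms were near or at 0. *Cox7a1* had 2 UMIs and *Cox7b2* and *Cox8c* no UMI in normoxia EC-like cells, where 3 UMIs would be 0.910 CPM. *Cox6a2*, the muscle isoform of subunit VIa, had no UMI in EC-like or fibroblast-like cells of either library within the 5% limit (1 in normoxia EC-like cells without it) but 4 UMIs in the 5 AT2-like cells of normoxia and 7 UMIs in the 6 of hypoxia.

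**Figure D5:**
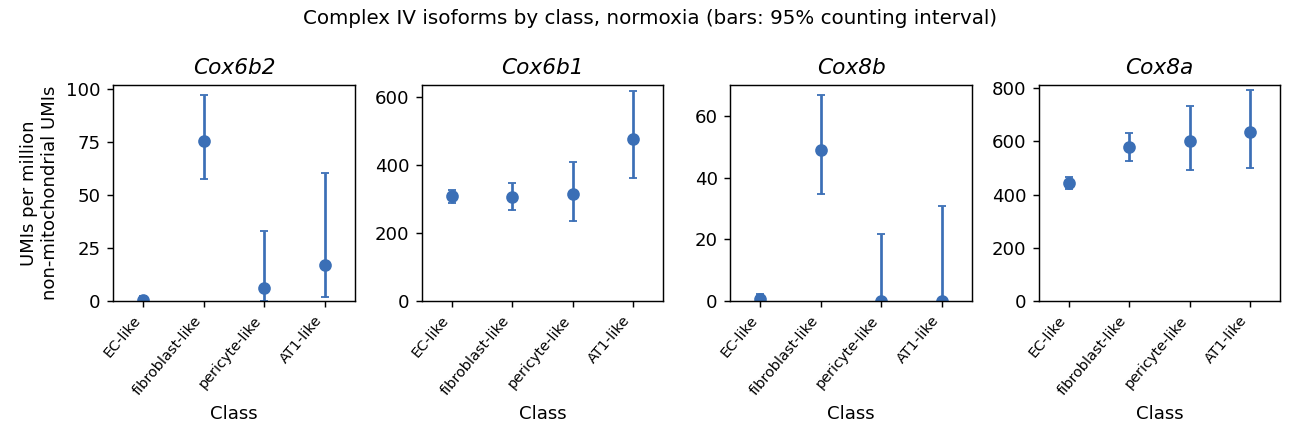
Level (vertical axis, UMIs per 1000000 non-mitochondrial UMIs, own scale in each panel) of *Cox6b2*, *Cox6b1*, *Cox8b* and *Cox8a* in 4 classes of normoxia cells, with 95% counting intervals. *Cox6b2* and *Cox8b* stand at 75.3 and 48.9 CPM in fibroblast-like cells and at 0.607 CPM in EC-like cells, while *Cox6b1* is at 305 and 308 CPM in these classes.

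Genes that serve the chain without matching its symbols moved little as groups in EC-like cells. The all-gene shares for these counts are the 7.64% higher and 11.1% lower given above, and with 7 to 31 genes a list nothing particular to a list is read from them. Of 31 assembly factors outside the rule with at least 50 UMIs, 2 were higher by 1.5-fold or more (*Cox17*, a copper chaperone, 1.56, and *Sco2*, 1.66) and 2 were lower (*Ttc19*, 0.511, and *Foxred1*, 0.572), with a median of 1.08. Of 14 genes of electron carriers and ubiquinone synthesis, 1 was higher (*Coq2*, 1.77) and 2 lower (*Coq7*, 0.657, and *Coq10b*, 0.643). Of 19 genes listed for the TCA cycle, with pyruvate dehydrogenase and its regulation, 2 were higher (*Suclg2*, 1.79, and *Mdh2*, 1.54) and 2 lower (*Dlat*, 0.649, and *Pdk1*, 0.657). *Pdk1*, which inhibits pyruvate dehydrogenase, turned to 2.97 within clusters, so no direction is read from it, and the cause of the turn was not tested.

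Of 22 listed regulators of mitochondrial transcription, RNA and biogenesis, 14 had at least 50 UMIs. Their median was 0.993, next to 1.01 over all genes. Of the 14, 1 was higher (*Lrpprc*, which stabilizes mitochondrial mRNA, 45 and 46 UMIs, 1.85, 1.20 to 2.85) and 1 lower (*Pprc1*, 0.548). Their part in the level of the mitochondrial transcripts was not tested. The mitochondrial ribosomal proteins stood at 1.17 (1.13 to 1.20) in sum and at a median of 1.04 within clusters. Of 7 carriers and porins, *Ucp2* was the only one past 1.5-fold, with 457 UMIs (139 CPM) in normoxia and 527 UMIs (289 CPM) in hypoxia, a ratio of 2.08 (1.83 to 2.37).

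Of 8 genes listed as hypoxia-linked switches of respiration, 1 was higher by 1.5-fold or more and 1 lower, with a median of 1.22. The higher one, *Bnip3*, had the largest ratio on these lists. *Bnip3* is a target of the hypoxia-inducible factors and receptor for the removal of mitochondria by autophagy. It had 68 UMIs (20.6 CPM) in normoxia and 228 UMIs (125 CPM) in hypoxia, a ratio of 6.05 (4.60 to 8.06), and 6.45 within clusters. Its paralog *Bnip3l* stood at 272 and 316 CPM, a ratio of 1.16 (1.04 to 1.29). In hypoxia, *Bnip3* was at 115 CPM (90.1 to 145) in EC-like cells with at most 0.5% mitochondrial UMIs and at 130 CPM (111 to 152) in the others, levels whose intervals overlap. The part of *Bnip3* in the level of the mitochondrial transcripts was not tested.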

How the data were processed

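Raw UMI counts per gene and cell, deposited by the authors for 1 normoxia and 1 hypoxia library, were used without normalization. Per the file headers they come from Cell Ranger 6.1.2, and the submitters' processing notes name mm10 and Seurat. Counts are molecules per gene in barcodes called as cells.

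Cells with 200 to 4000 detected genes were clustered in scanpy 1.11.5 (2000 variable genes without members, 30 principal components, 15 neighbours, Leiden resolution 2) after the limit of 5% mitochondrial UMIs. Cells above it took the class of most of their 15 nearest kept cells. Clusters were named from markers. Those with under 3 detected markers, those led by genes of another class, and shallow ones without a marker among their 10 leading genes got no name; these rules were tightened after the data were seen. Doublets were limited by the number of genes; Scrublet marked 3 normoxia cells. UMIs were summed per class and library. Members past 1.5-fold were counted among those with at least 50 UMIs. Ratios within clusters are Mantel-Haenszel estimates. Members and lists were chosen with earlier results of these data known. The genes named were the 13 mitochondrial members, 8 nuclear members at each end by the bound nearest 1, complex IV and c subunit isoforms, 5 members per other class of at least 20 normoxia cells, and at most 6 list genes past 1.5-fold. The ratio code was checked on simulated counts. Positions are from GENCODE on GRCm38. Alternatives were other limits on genes and mitochondrial UMIs, resolutions, scalings, folds, EC cells taken by 2 or more markers, a mean over cells, thinning and Scrublet.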

Additional observations from a re-analysis of the deposited data

Results flagged for a closer look

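The summed level of the mitochondrial members moved opposite to EC-like cells in pericyte-like cells once the 5% limit was lifted. In 56 normoxia and 8 hypoxia cells it was 33798 and 40405 UMIs per 1000000, a ratio of 1.20 (1.12 to 1.28), against 0.552 in EC-like cells, and the difference was not tested. Of the 998 mitochondrial UMIs of these 8 cells, 592 came from 1 cell at 5.83%, and without that cell the ratio was 0.826.

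The summed level of the nuclear members moved opposite to EC-like cells in the cells without a class name. With the limit these are the cells of unnamed clusters. Without it they also include cells above the limit that got no class from their nearest kept cells. The ratio was 0.839 (0.805 to 0.873) over 312 normoxia and 179 hypoxia cells with the limit and 0.820 (0.792 to 0.849) over 796 and 224 cells without it, against 1.216 and 1.244 in EC-like cells, and this difference was not tested either. The unnamed clusters differ in make-up between the libraries: cluster 15, at 6209 and 7429 CPM of nuclear members and 133222 and 119856 CPM of *Malat1*, held 56 normoxia and 73 hypoxia cells. Within cluster 15 the nuclear ratio was 1.20 (1.08 to 1.33).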

How the results depend on the processing

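Each condition has 1 library, so no value has replicate error, and library, condition and handling cannot be told apart. No paired analysis was possible because neither condition was measured in more than 1 library. Classes with few hypoxia cells rest on few UMIs, and intervals cover counting error only. Of the alternatives, those within clusters, without clusters mostly of 1 library and without cells at or under 0.5% mitochondrial UMIs were chosen after seeing the data.

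In EC-like cells no alternative turned the direction of the summed levels or of their ratio, but the nuclear interval within clusters (0.985 to 1.03) included 1. The complexes were recomputed only with no mitochondrial limit and with joint clustering, where they kept their directions. They were not recomputed within clusters. The mitochondrial level, 0.543 as reported, was 0.529 with an upper limit of 6000 genes, 0.512 with a limit of 10% mitochondrial UMIs, 0.552 with no such limit, 0.517 at Leiden resolution 1, 0.508 when cells above the limit were clustered with the rest, 0.582 as a mean over cells, 0.568 after thinning to 1000 UMIs, 0.520 with median scaling, 0.478 within clusters, 0.502 without clusters mostly of 1 library and 0.788 without cells at or under 0.5%. The nuclear level, 1.216 as reported, was 1.198 with 6000 genes, 1.244 with no mitochondrial limit, 1.191 at resolution 1, 1.171 with joint clustering, 1.164 with EC cells taken by markers, 1.335 as a mean over cells, 1.272 after thinning, 1.179 with median scaling, 1.009 within clusters, 1.029 without clusters mostly of 1 library and 1.198 without cells at or under 0.5%. The mitochondrial to nuclear ratio, 0.441 as reported, was 0.411 with a limit of 10%, 0.429 at resolution 1, 0.428 with joint clustering, 0.462 by markers, 0.432 as a mean over cells, 0.473 within clusters, 0.482 without clusters mostly of 1 library and 0.654 without cells at or under 0.5%. Median scaling moved all genes by 0.05 on the log2 scale.

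The 3 nuclear members higher by 1.5-fold became 28 when a level higher by 25% counted, 0 at 2-fold, 6 with no mitochondrial limit, 5 with all UMIs as denominator and 1 within clusters. None was lower, except 1 with a minimum of 20 UMIs. The 13 lower mitochondrial members became 4 at 2-fold. With no limit, the nuclear subunits of complex I stood at 1.201. With cells above the limit clustered jointly, the mitochondrial subunits of complexes I, III, IV and V stood at 0.477, 0.530, 0.504 and 0.425, and the nuclear ones of IV and V at 1.147 and 1.204. The cause of these shifts was not tested. Of 29 single members named, all stayed within their counting interval under median scaling and with no limit, and 22 moved beyond it within clusters. Of the 29, 4 whose intervals included 1 changed sides of 1: within clusters *Sdha* went from 0.846 to 1.05, *Atp5h* from 1.07 to 0.781, *Ndufb3* from 1.005 to 0.851 and *Ndufab1* from 1.006 to 0.889, and with median scaling *Ndufb3* and *Ndufab1* stood at 0.974 and 0.975.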
